A study of Mus musculus with 6 samples.

Results

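The response of Akirin2-deficient macrophages to 2 h of lipopolysaccharide (LPS) was described by setting the array of Akirin2 KO macrophages at LPS 2 h against the array of unstimulated Akirin2 KO macrophages, 2 of the 6 arrays of the series. The values compared were 13587 of 18194 named genes. Each gene was read from the probe set with 1 gene symbol and the highest mean over the 6 arrays, and was kept if at least 1 array reached its own median over all probe sets. The cells were peritoneal macrophages from mice injected with thioglycollate, which irritates the peritoneum so that macrophages gather there. The KO mice carried the genotype LysM-Cre+;Akirin2fl/fl, in which Cre recombinase made from the lysozyme locus deletes floxed Akirin2 in myeloid cells. The wild-type cells used for comparison had no such genotype listed, and all mice were of a mixed C57BL/6 x 129Sv background. KO cells were unstimulated or had 100 ng/ml LPS for 2 h or 4 h, and wild-type cells had the same 3 conditions. Whether an array stands for 1 mouse or a pool is not given in the labels. With 1 array per condition, differences within KO have no replicate error and no test, and a gene is described as higher or lower at LPS 2 h where its log2 difference was at least 1 in size (2-fold).

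LPS is a component of the outer membrane of Gram-negative bacteria that macrophages sense through the receptor complex of Toll-like receptor 4, MD-2 and CD14. The receptor signals through MyD88 and TRIF to NF-kB, MAP kinases and interferon regulatory factors, which switch on cytokine, chemokine and feedback genes within the first hours. Akirin2 is a small nuclear protein conserved from insects to mammals. It has been reported in mouse macrophages to link IkB-zeta, a nuclear co-activator of NF-kB, to the chromatin remodelling complex SWI/SNF at part of the LPS-induced genes.

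Akirin2 itself read 5.54 in KO at LPS 2 h and 5.18 in unstimulated KO, against 7.47 and 7.43 in wild-type cells at the same times. It was below wild-type in both KO arrays, and LPS 2 h and unstimulated cells differed by less than the 2-fold rule in either genotype. Its paralog Akirin1 read 10.05 and 9.88 in the same KO arrays, and Lyz2, the lysozyme gene whose locus drives the Cre, read 12.01 in each. Of 8 macrophage markers, 8 were above the floor, with KO differences of −0.84 to 1.92 and 4 above 0. The receptor gene Csf1r read 12.57 in KO at LPS 2 h and 12.48 unstimulated, Cd14 was the 1 marker past the 2-fold rule, and Mertk (−0.84) and Fcgr1 (−0.57) fell in the limma fit described below. Arrays correlated between 0.958 and 0.989 with each other over all probe sets. The unstimulated KO array stood apart in some control probe sets. The bioB and bioC hybridisation spikes averaged 10.19 over 10 probe sets in KO at LPS 2 h, against 10.89 in unstimulated KO, and lay between 10.12 and 10.47 in the other arrays, while the cre spikes read 13.97 at LPS 2 h and 13.96 unstimulated. Probe sets of B1 and B2 repeats averaged 9.47 in KO at LPS 2 h and 9.96 in unstimulated KO. The Actb 3' minus 5' difference, a sign of RNA quality, was 4.64, 4.50 and 4.36 in KO at 0, 2 and 4 h, against 4.22, 4.16 and 4.09 in wild-type. For Gapdh the same difference was 4.34, 4.52 and 4.44 in KO, against 4.33, 4.33 and 4.42 in wild-type. The unstimulated KO array enters every difference below, and its part in them was not tested apart from the values without it that are given beside the counts.

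At LPS 2 h, 332 genes (2.44% of those measured) were at least 2-fold higher in KO and 123 (0.905%) at least 2-fold lower. The counts in gene lists below are to be read against these shares. The higher genes reached far larger differences. At least 4-fold were 78 higher and 6 lower genes, at least 8-fold 38 and 0, at least 16-fold 12 and 0, and at least 64-fold 2 and 0. The median difference over all genes was −0.0049, and the middle 90% of genes lay between −0.58 and 0.67. At the edge of the rule lay Ms4a6c at 1.0007 inside and Slco4a1 at 0.9995 outside among higher genes, and Slc46a3 at −1.0020 inside and Arhgap39 at −0.9988 outside among lower genes. With the unstimulated wild-type array in place of the unstimulated KO array, 296 genes were higher and 286 lower in KO at LPS 2 h, so the count of lower genes moved by over 1.5 times. The unstimulated KO value was the highest of all 6 arrays in 71 of the 123 lower genes and the lowest in 247 of the 332 higher genes, which the choice of genes by that value favours. For the genes chosen in wild-type, the unstimulated wild-type value was the highest in 237 of 297 lower genes and the lowest in 106 of 307 higher genes.

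**Figure D1:**
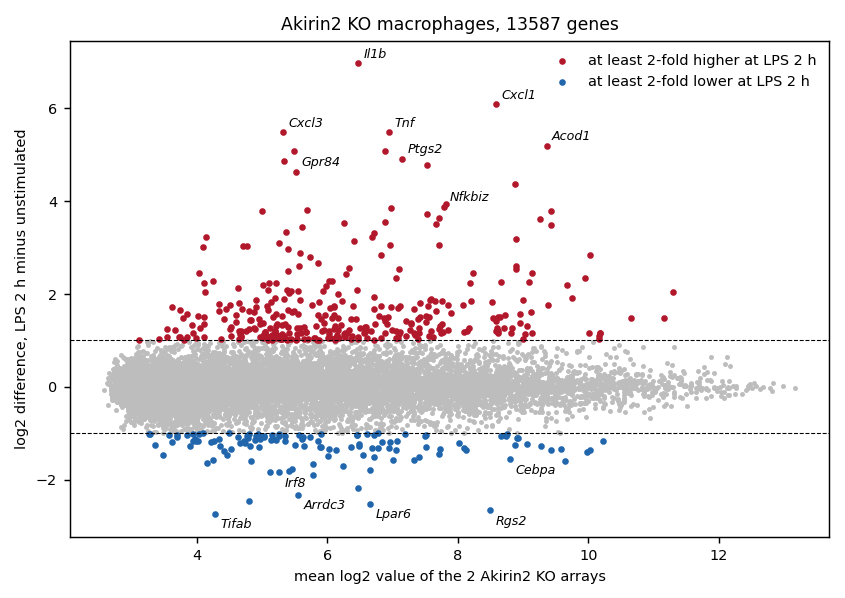
Log2 difference of each gene (LPS 2 h minus unstimulated, y axis) against the mean log2 value of the same 2 Akirin2 KO arrays (x axis), 1 point per gene, with dashed lines at the 2-fold rule. The 332 higher genes (red) reached 6.97 for Il1b, and the 123 lower genes (blue) did not go below −2.74 for Tifab.

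With no replicates, the KO response alone has no test. The 2 h response averaged over both genotypes was tested across the arrays. A gene could pass with a small difference in 1 genotype, as Cemip2 did (1.75 in KO, 0.54 in wild-type). In an additive limma fit over all 6 arrays, with LPS time and genotype as terms, 538 genes (3.96%) were higher at LPS 2 h and 393 (2.89%) lower, at a Benjamini-Hochberg adjusted p of 0.05. In what follows, "rose" and "fell" are used of genes that passed this test, and differences are those of the KO arrays. Of the 332 genes higher in KO, 305 (91.9%) rose, and of the 123 lower genes, 90 (73.2%) fell. The KO arrays are part of that fit, so these shares are no separate evidence.

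Cytokine and chemokine genes headed the list. Il1b, the precursor of the fever-inducing cytokine interleukin 1 beta, read 9.96 in KO at LPS 2 h and 2.99 in unstimulated KO (limma effect 7.11 on the log2 scale, SE 0.16, adjusted p = 4.31e-07). Cxcl1, a chemokine that draws neutrophils, read 11.63 at LPS 2 h and 5.54 unstimulated, a 68.4-fold difference (limma effect 6.21, SE 0.17, adjusted p = 6.63e-07). The unstimulated value of Il1b lay below that array's median of 3.23 over all probe sets, so Il1b was at least 107-fold higher, counted from that median. This held for 24 of the 332 higher genes, and 9 of the 123 lower genes were below the median at LPS 2 h. Of 24 listed proinflammatory and regulatory cytokines, 22 were measured, 7 were at least 2-fold higher and 0 lower, and the median difference was 0.44; 8 rose. Besides Il1b, they were Tnf (9.69 at LPS 2 h, 4.19 unstimulated), Il1a (7.78 and 2.91), Il6 (5.39 and 3.12), the activin subunit gene Inhba (4.88 and 3.36), the interleukin 1 receptor antagonist gene Il1rn (9.29 and 7.87) and Lif (4.31 and 3.30). The other 15 were below the rule, with differences of −0.68 to 0.81. Ifnb1, which encodes interferon beta, read 2.89 at LPS 2 h and 3.002 unstimulated. Il12b, a subunit of interleukins 12 and 23, read 3.003 at LPS 2 h and 2.93 unstimulated.

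Besides Cxcl1, the neutrophil-attracting CXC chemokine genes Cxcl2 and Cxcl3, which lie in the same cluster of chromosome 5, were among the 15 genes with the largest differences. Cxcl3 read 8.07 in KO at LPS 2 h and 2.58 unstimulated, which is below that array's median, so it was at least 28.8-fold higher, and Cxcl2 read 11.06 and 6.69, a difference of 4.36. Of the 7 listed genes of this group, 6 passed the floor: 3 were at least 2-fold higher, and Cxcl5 (0.61), Pf4 (0.01) and Ppbp (−0.05) were not. The group's median was 2.48 over these 6, and 0.61 with no floor. Of 32851 RefSeq promoter windows (GRCm38.p6, 250 bases before to 50 after each gene start), 4.51% held a kappaB site, the DNA element bound by NF-kB, searched on both strands. The share was 5.19% of the windows of genes above the floor, 13.6% (48 of 353) of the windows of genes higher in KO, and 2.96% (4 of 135) of those of lower genes. A match describes the letters and shows no binding. The search used 1 strict pattern, so a window without a match may still hold a variant of the site. Of the 15 genes with the largest differences, 12 had a window, and only Cxcl1, Cxcl2 and Cxcl3 had a kappaB match in it. Their windows all lie on chromosome 5 on the plus strand, at chr5:90890995-90891294 for Cxcl1, chr5:90903649-90903948 for Cxcl2 and chr5:90785851-90786150 for Cxcl3. They are shown because these 3 genes carry the site close to the start, with the kappaB match in capitals, made of overlapping matches that begin at −71 and −70 in Cxcl1, −97 and −96 in Cxcl2, and −73 and −72 in Cxcl3 relative to the start.
Cxcl1: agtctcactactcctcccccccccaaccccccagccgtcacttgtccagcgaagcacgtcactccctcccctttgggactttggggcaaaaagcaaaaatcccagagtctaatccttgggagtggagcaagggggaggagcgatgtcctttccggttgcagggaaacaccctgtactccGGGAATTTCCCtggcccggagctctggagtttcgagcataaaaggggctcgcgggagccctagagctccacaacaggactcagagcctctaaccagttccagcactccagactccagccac
Cxcl2: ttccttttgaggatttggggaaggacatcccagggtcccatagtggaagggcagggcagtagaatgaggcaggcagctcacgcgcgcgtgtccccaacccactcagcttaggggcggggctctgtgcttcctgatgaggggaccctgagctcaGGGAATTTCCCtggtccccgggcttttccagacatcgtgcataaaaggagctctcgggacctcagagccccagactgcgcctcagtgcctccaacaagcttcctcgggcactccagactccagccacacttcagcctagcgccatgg
Cxcl3: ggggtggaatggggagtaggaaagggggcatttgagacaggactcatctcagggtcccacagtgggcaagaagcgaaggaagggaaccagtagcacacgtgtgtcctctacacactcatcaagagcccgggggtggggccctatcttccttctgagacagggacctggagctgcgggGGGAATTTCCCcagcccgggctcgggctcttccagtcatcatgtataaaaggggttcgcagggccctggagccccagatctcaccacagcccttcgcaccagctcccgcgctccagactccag
The letters in capitals were identical in the 3 windows. The window of Cxcl3 also held a TATA box, searched as the letters TATAAA on both strands. These letters were found in 6 of the 12 windows of the most increased genes. In the window of Icam1 they began after the start, at 14, where they are not placed as a TATA box. They were found in 8.58% of windows of genes above the floor, and in 11.3% and 13.3% of windows of higher and lower genes. An interferon response element, searched on both strands as GAAA, 2 free bases and GAAA, was found in 3.97% and 4.44% of the windows of higher and lower genes, against 3.14% of windows above the floor. For an AP-1 site, searched as TGA, 1 free base and TCA, these shares were 9.92% and 5.93%, against 5.84%.

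**Figure D2:**
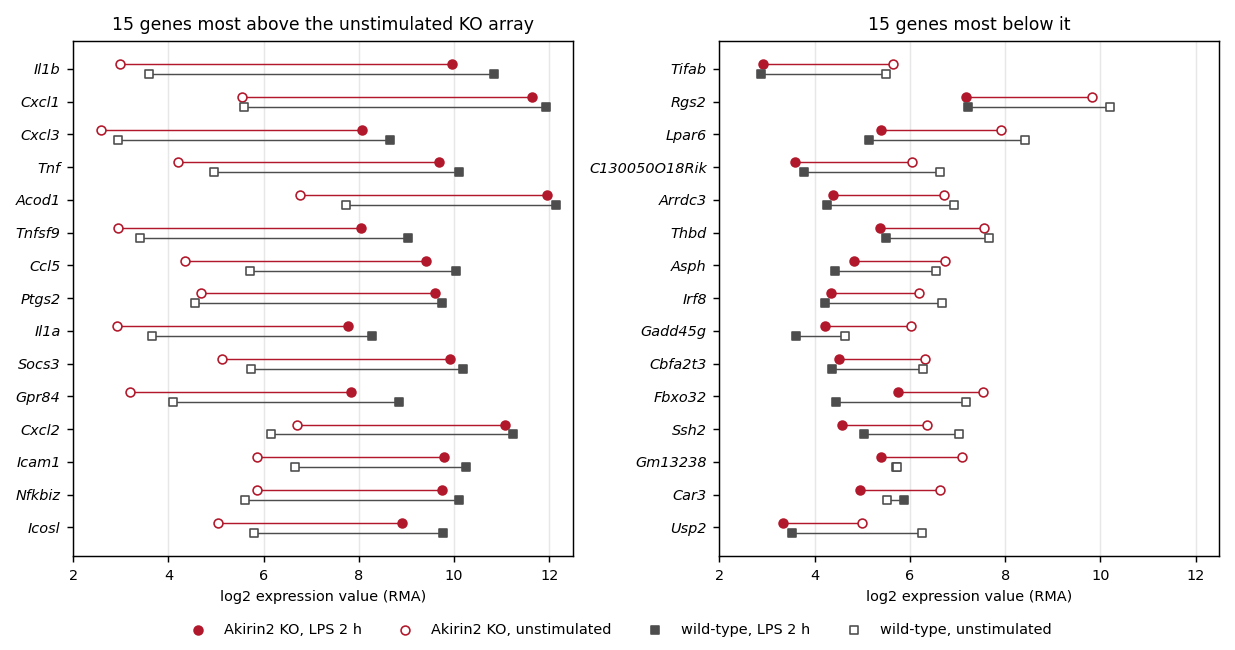
Log2 values of the 15 genes with the largest difference upwards (left) and downwards (right) between the KO arrays, for Akirin2 KO at LPS 2 h (filled circles), unstimulated KO (open circles), wild-type at LPS 2 h (filled squares) and unstimulated wild-type (open squares), 1 array each. For Il1b the KO symbols lie at 9.96 and 2.99, while for Gm13238 and Car3 the KO symbols lie apart and the wild-type symbols close together.

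Among CC chemokines, which attract monocytes and T cells, 13 of 14 listed genes passed the floor, 5 were at least 2-fold higher and 0 lower, and 5 rose. Ccl5 read 9.42 in KO at LPS 2 h and 4.34 unstimulated, a 33.7-fold difference. Ccl3 read 11.07 and 7.44, and Ccl4 read 8.03 and 4.49. The monocyte chemoattractants Ccl2 and Ccl7 differed by 1.75 and 1.83. The remaining 8 lay between −0.49 and 0.81. Of 7 other CXC chemokines, the interferon-inducible Cxcl10 (3.04) and the transmembrane chemokine Cxcl16 (1.82) were higher. Among 13 measured ligands and receptors of the TNF superfamily, 5 rose: Tnf, the co-stimulatory ligand Tnfsf9 (8.03 at LPS 2 h, 2.95 unstimulated), the TNF receptor gene Tnfrsf1b (1.77), Cd40 (1.73) and the death receptor gene Fas (1.18). Cd40 was 0.80 without probe sets that may cross-hybridise, from a probe set that read 2.88 in unstimulated KO, below that array's median.

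NF-kB subunits and their inhibitors passed the 2-fold rule in every measured gene. Of 11 listed genes, 10 were measured, and 10 were at least 2-fold higher in KO, against 2.44% of all genes; 10 rose, and the median difference was 1.97. Nfkbiz, which encodes IkB-zeta, read 9.74 in KO at LPS 2 h and 5.85 unstimulated, a 14.8-fold difference. Nfkbia, the gene of the cytoplasmic inhibitor IkB-alpha, read 12.32 and 10.27 in the probe set used, and its 4 other probe sets differed by 1.77 to 3.30. The inhibitor genes Nfkbie (3.52) and Bcl3 (2.67) and the precursor gene Nfkb2 (2.59) followed. The subunit genes Rela, Rel and Relb differed least, by 1.27, 1.25 and 1.24. The unstimulated KO value of Relb lay below that array's median, so Relb was at least 1.93-fold higher, counted from that median. For Nfkbib the difference was 1.90, but 0.15 without probe sets that may cross-hybridise. The probe set that then stood for Nfkbib read 3.28 in KO at LPS 2 h and 3.13 unstimulated, near those arrays' medians of 3.18 and 3.23. It therefore cannot tell whether the 1.90 came from cross-hybridisation.

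Part of the feedback and survival genes that NF-kB controls were also higher. Of 16 measured genes of this list, 9 were at least 2-fold higher and 1 lower, with a median of 1.33; 11 rose and 1 fell. Tnfaip3, which encodes the deubiquitinating enzyme A20, read 8.48 in KO at LPS 2 h and 5.43 unstimulated. Traf1, an adaptor of TNF receptors, read 7.03 and 4.14. Tnip1, the A20-binding protein (2.54), Sod2, the mitochondrial superoxide dismutase (2.34), and Cflar, an inhibitor of caspase 8 (2.23), followed. The stress-response genes Gadd45a and Gadd45g parted, at 2.17 and −1.83. Among regulators of mRNA decay, 3 of 13 were higher, namely the endonuclease gene Zc3h12a (2.08), its relative Zc3h12c (2.79) and Zfp36 (1.22), which encodes tristetraprolin. Zfp36l2, of the same family as Zfp36, was lower (−1.06). Socs3, an inhibitor of cytokine receptor signalling, read 9.91 at LPS 2 h and 5.13 unstimulated, and 1.66 was its difference without probe sets that may cross-hybridise. The probe set that then stood for Socs3 read 2.79 in unstimulated KO, below that array's median.

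**Figure D3:**
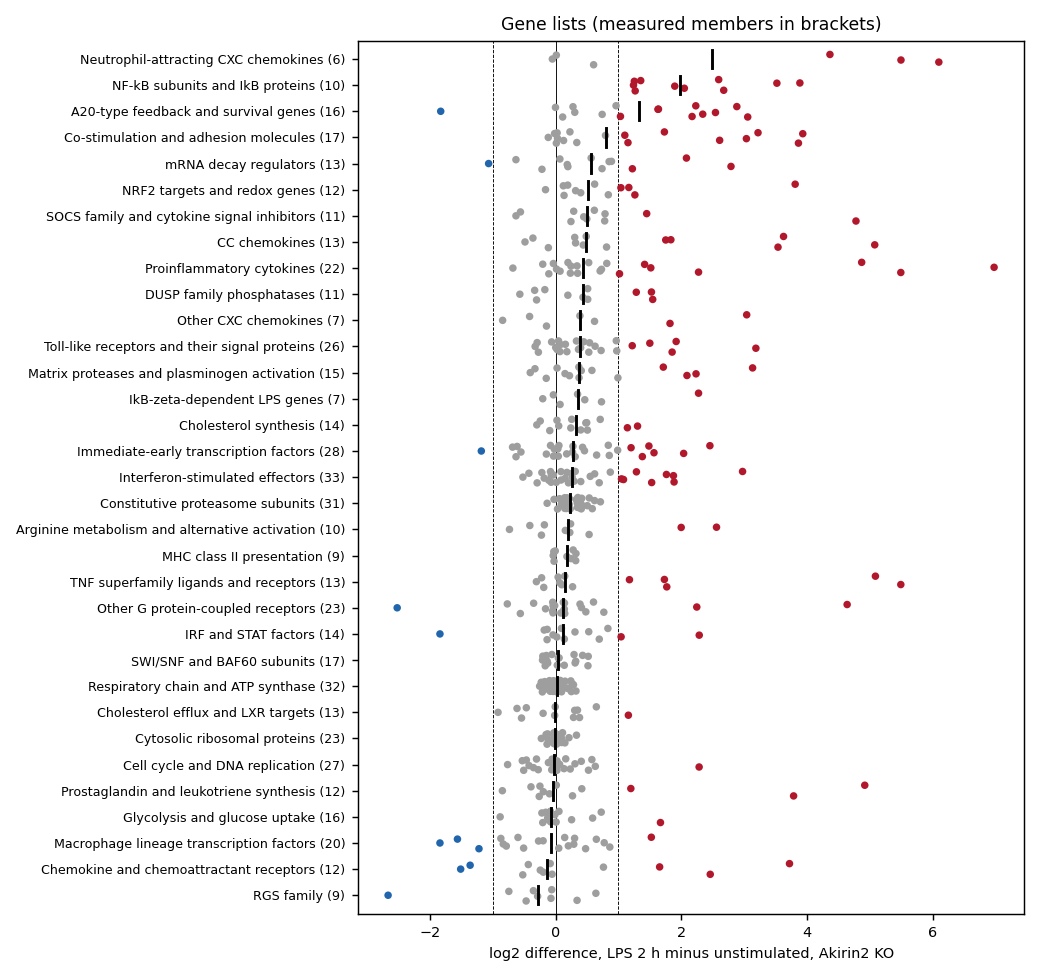
Log2 difference (LPS 2 h minus unstimulated, Akirin2 KO) of each measured gene of 33 function lists, 1 point per gene, with the list's median as a black bar, dashed lines at the 2-fold rule, and higher genes in red and lower genes in blue. All 10 measured NF-kB and IkB genes lay at or above 1.24, whereas no proteasome, ribosomal, respiratory chain, MHC class II or SWI/SNF gene passed the rule.

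Receptors and signal proteins of the LPS pathway shifted in part. Of 26 measured genes, 5 were at least 2-fold higher, 0 lower and 9 rose, with a median of 0.38. Tlr2, the receptor for bacterial lipoproteins, read 10.49 in KO at LPS 2 h and 7.31 unstimulated. Cd14, the LPS co-receptor, read 10.71 and 8.79. Irak3, an inhibitory kinase relative (1.85), Tlr1, the partner of Tlr2 (1.4996), and Tlr7 (1.22) completed the 5, and Myd88 rose with a KO difference of 0.97. Tlr4 differed by 0.36 and its partner Ly96, which encodes MD-2, by 0.03.

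Transcription factors of the early response moved in both directions. Of 28 measured immediate-early genes, 6 were higher and 1 lower in KO (2.44% and 0.905% over all genes), 8 rose and 4 fell, with a median of 0.27. Ets2 read 10.36 in KO at LPS 2 h and 7.90 unstimulated, and Maff read 5.15 and 3.11. The AP-1 genes Fosl1 (1.57) and Fosl2 (1.48), Egr1 (1.38) and the nuclear receptor gene Nr4a3 (1.20) were the other higher genes. Klf4 was lower (−1.18), and Fos, Jun and Atf3 fell with KO differences of −0.68, −0.61 and −0.55. Fos read 8.58 and Atf3 9.22 in KO at LPS 2 h, against 9.27 and 9.77 in unstimulated KO. Among factors of the macrophage lineage, 20 were measured, 1 was higher and 3 lower (2.44% and 0.905% over all genes), and 3 rose and 7 fell. Irf8, a factor of monocyte and macrophage development, read 4.35 at LPS 2 h and 6.19 unstimulated, and its other probe set differed by −0.77. Cebpa read 8.01 and 9.57, and Maf read 7.41 and 8.63. Tfec, a relative of the lysosomal regulator TFEB, was the higher one (1.52), and Pparg fell with a KO difference of −0.87.

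Genes of G protein signalling past the rule lay on both sides. Of 9 RGS genes, 1 was lower (0.905% over all genes) and 0 higher. Of 23 measured G protein-coupled receptors outside the chemoattractant list, 1 was lower and 2 higher (0.905% and 2.44% over all genes). Rgs2, which shortens Gq signalling, read 7.17 in KO at LPS 2 h and 9.83 unstimulated (limma effect −2.82, SE 0.20, adjusted p = 0.000113), and its 2 other probe sets differed by −2.71 and −2.27. Lpar6, a receptor for lysophosphatidic acid, read 5.40 and 7.92. The chemokine receptor genes Ccr2 (5.96 and 7.47) and Cxcr4 (9.35 and 10.71) were lower as well. In contrast, the medium-chain fatty acid receptor gene Gpr84 read 7.84 at LPS 2 h and 3.20 unstimulated, the chemerin-binding receptor gene Ccrl2 read 9.38 and 5.66, and the formyl peptide receptor gene Fpr2 read 9.46 and 7.002. Of 12 measured chemoattractant receptors, 3 were thus higher and 2 lower.

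Tifab, an inhibitor related to the TRAF-binding adaptor TIFA, read 2.91 in KO at LPS 2 h and 5.65 unstimulated. Its LPS 2 h value lay below that array's median, so it was at least 5.53-fold lower, whereas Rgs2 was 6.33-fold lower. Arrdc3, an alpha-arrestin, read 4.39 and 6.71, and Thbd, the anticoagulant receptor thrombomodulin, read 5.38 and 7.56. Fbxo32, the ubiquitin ligase subunit atrogin-1, read 5.76 and 7.54. Of the 15 lowest genes, 13 fell; Gm13238 (5.39 and 7.10) and Car3, a carbonic anhydrase (4.95 and 6.62), did not pass (adjusted p = 0.202 and 0.407 in the additive limma fit). In wild-type cells Gm13238 differed by −0.02 and Car3 by 0.35, and the unstimulated KO value was the highest of the 6 arrays for both. For Asph, an aspartyl hydroxylase, the difference of −1.90 became 0.23 without probe sets that may cross-hybridise.

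Most interferon-stimulated genes were not yet 2-fold higher at 2 h. Of 33 measured, 8 were at least 2-fold higher in KO at LPS 2 h (2.44% over all genes) and 29 at LPS 4 h (4.07%); both counts are set against the same unstimulated KO array. Ifit1, which binds foreign RNA, read 3.92, 6.89 and 9.43 in KO at 0, 2 and 4 h. Ifih1, the RNA sensor MDA5, read 6.64, 8.53 and 9.12, and Rsad2, the antiviral protein viperin, read 6.75, 8.28 and 10.002. Ifit2, Cmpk2 and Usp18 showed no 2-fold difference at 2 h (−0.18, 0.01 and 0.69), and at 4 h read 5.74, 5.95 and 5.62 against 3.25, 3.70 and 2.49 unstimulated. Irf1, a factor induced early by NF-kB, read 7.18 at LPS 2 h and 4.89 unstimulated. Among the genes with the largest differences at 2 h, Il1b read 2.99, 9.96 and 9.29 at 0, 2 and 4 h, and Tnf read 4.19, 9.69 and 9.59. Cxcl3 read 2.58, 8.07 and 9.52, and Ccl5 read 4.34, 9.42 and 11.09, higher at 4 h than at 2 h. Without replicates, differences between the 2 h and 4 h arrays were not tested.

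**Figure D4:**
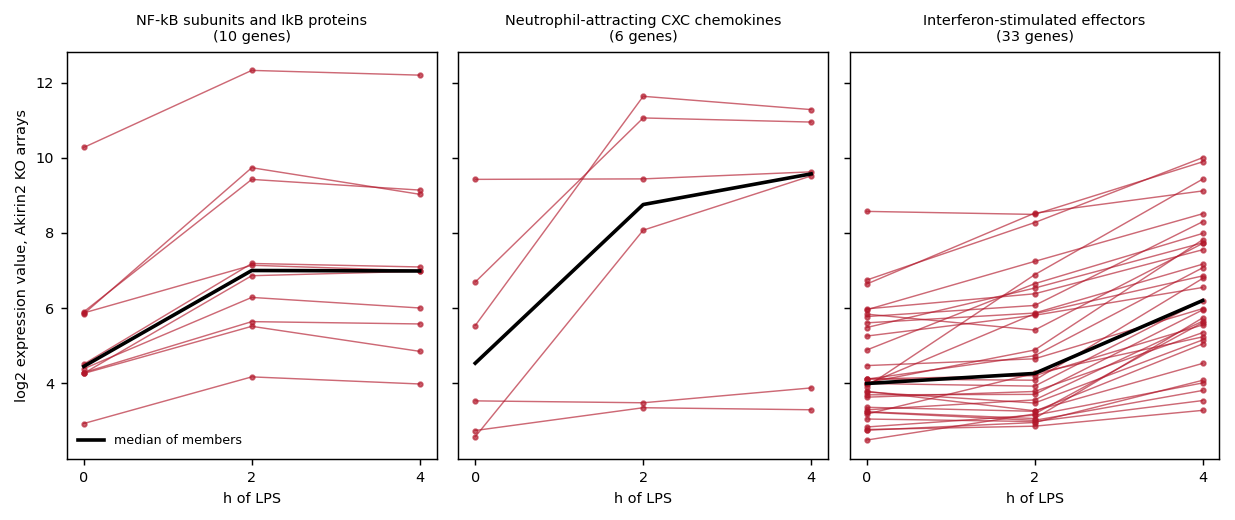
Log2 values in Akirin2 KO arrays at 0, 2 and 4 h of LPS (x axis), 1 thin line per gene and a thick line for the median of the members, for NF-kB and IkB genes (10), neutrophil-attracting CXC chemokines (6) and interferon-stimulated effectors (33). The NF-kB and IkB lines were all above their start at 2 h, while 8 of the 33 interferon-stimulated genes were at least 2-fold higher at 2 h and 29 at 4 h.

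Surface molecules through which macrophages engage T cells and vessel walls were among the larger groups. Of 17 measured co-stimulation and adhesion genes, 8 were at least 2-fold higher and 9 rose, with a median of 0.79. Icam1 read 9.79 in KO at LPS 2 h and 5.86 unstimulated, Icosl, the ligand of the T cell receptor ICOS, read 8.91 and 5.05, and Vcam1 read 5.75 and 2.53. Cd69 (3.04) and Cd83 (2.61) followed. MHC class II genes did not share this: of 9 measured, 0 passed the rule, and they lay between −0.04 and 0.32. Lipid mediator synthesis had 3 higher genes of 12 (2.44% over all genes). Ptgs2, the inducible cyclooxygenase, read 9.60 at LPS 2 h and 4.68 unstimulated, Ptges, which makes prostaglandin E2, read 6.90 and 3.11, and Pla2g4a, the phospholipase that frees arachidonic acid, read 5.25 and 4.05. Acod1, which makes the antimicrobial metabolite itaconate, read 11.96 and 6.76, a 36.6-fold difference.

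Housekeeping complexes differed little. Of 31 proteasome subunits, 0 passed the 2-fold rule, 29 were above 0 and the median was 0.23, against −0.0049 over all genes; 0 rose in the limma fit. Ribosomal proteins (23 measured, median −0.0090), respiratory chain and ATP synthase subunits (32, median 0.02) and SWI/SNF subunits (17, median 0.04) had 0 genes past the rule. Markers of other cells were followed as well. B-cell markers had a median of −0.47 over 6 measured genes, with a summed level of 8.36 in KO at LPS 2 h and 8.51 unstimulated on the log2 scale, and 1 of 6 (Ighm, −1.08) passed the rule. For mesothelial cells and fibroblasts, 9 of 10 marker genes were above 0 (median 0.37), with summed levels of 9.25 and 8.95. T and NK cell markers lay between −0.11 and 0.07 over the 4 that passed the floor. The part of such cells in the results was not tested, and in bulk RNA fewer cells of a type and less RNA per cell cannot be told apart.

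The wild-type arrays at the same times share no array with the KO pair. There, 307 genes (2.26%) were at least 2-fold higher at LPS 2 h and 297 (2.19%) lower. The genes higher in both genotypes numbered 241, which is 72.6% of the KO genes and 78.5% of the wild-type genes. The genes lower in both numbered 74, which is 60.2% of the KO genes and 24.9% of the wild-type genes. Centring each array on its median gave 326 higher and 131 lower genes in KO and 406 higher and 191 lower in wild-type. The 91 genes that were 2-fold higher in KO alone had a median wild-type difference of 0.78, and 3 of them were below 0 in wild-type. The 49 lower in KO alone had a median of −0.20 in wild-type, and 19 were above 0. The genes past the rule upwards in KO alone thus had, with 3 exceptions, a smaller difference of the same sign in wild-type.

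**Figure D5:**
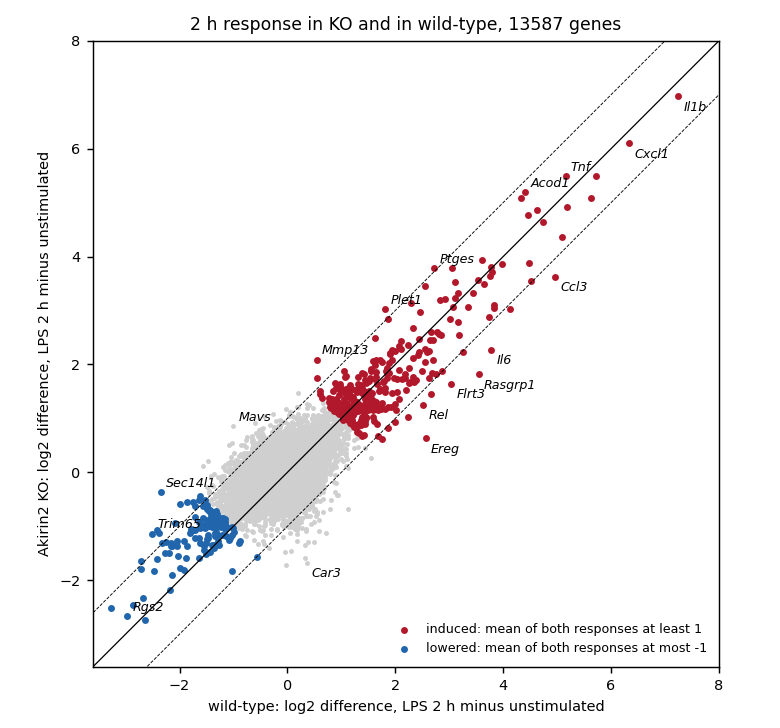
Log2 difference (LPS 2 h minus unstimulated) in Akirin2 KO (y axis) against wild-type (x axis), 1 point per gene, with the line of equal responses and dashed lines 2-fold to either side. Red marks the 310 genes with a mean response of at least 1 and blue the 134 with at most −1; Ereg, Rasgrp1 and Il6 lie below the line and Mmp13 above it.

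Over all genes, the KO response exceeded the wild-type response by at least 1 in 145 genes (1.07%) and fell short of it by at least 1 in 91 (0.67%). Among the 310 genes with a mean response of at least 1 over both genotypes, 14 had a response at least 2-fold smaller in KO and 4 a larger one, and the median difference was −0.051, against 0.091 over all genes. At LPS 2 h, KO was below wild-type in 237 of the 310 (median difference −0.26, against 0.004 over all genes). Unstimulated KO was below unstimulated wild-type in 217 (median difference −0.25, against −0.07 over all genes). Ereg, the growth factor epiregulin, read 4.55 in KO at LPS 2 h and 3.92 in unstimulated KO, against 5.89 and 3.33 in wild-type cells. Il6 read 5.39 and 3.12 in KO, against 6.97 and 3.20 in wild-type cells. Rasgrp1, an activator of Ras, differed by 1.82 in KO and 3.54 in wild-type. Ccl3 differed by 3.63 in KO and 4.96 in wild-type, and Rel by 1.25 and 2.52. For Ccl3 and Rel the unstimulated KO values of 7.44 and 4.27 were above the unstimulated wild-type values of 6.32 and 3.56. The 4 genes with a larger KO response were the collagenase gene Mmp13 (2.09 in KO, 0.54 in wild-type), Plet1 (3.02 and 1.81), the hyaluronidase gene Cemip2 (1.75 and 0.54) and Ptges (3.79 and 2.73). Unstimulated, Mmp13 read 5.4054 in KO and 6.7973 in wild-type, Cemip2 5.23 and 6.15, and Ptges 3.11 and 4.23. At LPS 2 h, Mmp13 read 7.4955 in KO and 7.3402 in wild-type, Cemip2 6.98 and 6.69, and Ptges 6.90 and 6.95. The genotypes thus lay further apart in the unstimulated arrays for Mmp13, Cemip2 and Ptges. Plet1 differed more at LPS 2 h (5.61 in KO, 4.54 in wild-type) than unstimulated (2.59 and 2.73).

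Genes reported to depend on IkB-zeta in LPS-stimulated macrophages were set apart as a list of 7, of which 7 were measured. In KO, 1 was at least 2-fold higher and the median difference was 0.35, while in wild-type 4 were and the median was 1.09. Besides Il6, the 3 that passed the rule only in wild-type were Il12b (0.07 in KO, 1.13 in wild-type), Csf2 (0.35 and 1.09) and Lcn2, the siderophore-binding lipocalin 2 (0.47 and 1.31). The rest of the list passed the rule in neither genotype: Ebi3 (0.73 in KO, 0.46 in wild-type), Edn1 (−0.034 and −0.036) and Csf3 (−0.20 and 0.25). All values of Csf3 lay near or below the array medians. In unstimulated cells Il12b read 2.93 in KO and 3.06 in wild-type, Csf2 read 2.85 and 2.97, and Lcn2 read 3.97 and 3.95. The unstimulated values of Il12b and Csf2 lay below the array medians, which ran from 3.18 to 3.23. At LPS 2 h, Il12b read 3.003 in KO and 4.19 in wild-type, and Csf2 read 3.20 and 4.06. None of the 7 passed the limma interaction, so the difference between the genotypes is a description of these arrays. The cytokine gene Il12a was lower in KO by 0.68 (2.80 at LPS 2 h, 3.48 unstimulated) and higher in wild-type by 1.13 (3.88 and 2.75). The lower value of each pair lay below the array medians, and Il12a did not pass the limma interaction (adjusted p = 0.115).

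Among the 134 genes with a mean response of −1 or less, 14 had a response weaker in KO by at least 1. A stronger one was seen in 1 (Pdk4, −1.57 in KO and −0.57 in wild-type). Over all genes, differences of that size in these directions made up 1.07% and 0.67%. The median difference was 0.44, against 0.091 over all genes. Sec14l1 read 5.58 in KO at LPS 2 h and 5.94 unstimulated, against 5.07 and 7.42 in wild-type cells. The ubiquitin ligase gene Trim65 differed by −1.14 in KO and −2.50 in wild-type, and Lfng, a modifier of Notch, by −0.56 and −1.87. KO at LPS 2 h was above wild-type at LPS 2 h in 97 of the 134 (median difference 0.26, against 0.004 over all genes). Unstimulated KO was below unstimulated wild-type in 94 (median −0.14, against −0.07 over all genes). The count of weaker responses was 5 with the mean of all probe sets of a gene, 9 after quantile normalization again and 7 after centring each array.

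The difference between the genotypes' responses was tested in a limma fit with an interaction of genotype and stimulation, taken as equal at 2 and 4 h. It called 4 genes (0.0294%), with an unadjusted p under 0.05 in 1739. Ereg was the only one of them with a mean response past the rule in size (interaction −1.94, SE 0.25, adjusted p = 0.026). Il6 gave −1.57 (adjusted p = 0.052), Mmp13 1.57 (adjusted p = 0.052), Rasgrp1 −1.52 (adjusted p = 0.063) and Ccl3 −1.42 (adjusted p = 0.063), which did not pass. Under other settings the fit called 0 to 155 positive and 0 to 101 negative interactions, so that its calls depended on the processing.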

How the data were processed

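Expression was measured on 6 Affymetrix mouse arrays, 1 per condition. The authors deposited 1 log2 value for every probe set and array, computed with RMA per the submitters' processing notes; for RMA's version, the probe definition and the build, nothing is given in the sources used here. RMA subtracts background, forces arrays to the same quantiles and summarises probes, so a shift of all genes on an array is not visible. The 45101 probe sets ran from 2.26 to 14.2, with array medians of 3.18 to 3.23. There is no read depth, and the number of arrays limits the precision. The platform annotation supplied with the series gave 34958 probe sets 1 symbol, 932 several and 9211 none; 34754 of the 34958 were found in RefSeq GRCm38.p6 by their gene number, which altered 0 symbols. Of the 13587 genes above the floor, 1669 passed only through LPS arrays, 6 of them among the higher KO genes. Of the 332 higher KO genes, 187 had a second probe set, of which 167 had the same sign and 75 were 2-fold higher (median 0.76, against 1.35 in the first); of the 123 lower genes, 70 had one, of which 57 had the same sign and 10 were 2-fold lower.

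Limma 3.58.1 in R 4.3.3 (lmFit, eBayes, Benjamini-Hochberg over the 13587 genes, threshold 0.05) gave the additive fit (2 residual and 6.35 prior degrees of freedom) and the interaction fit (1 and 11.5). The labels name no separate mice, and a genotype enters as 3 arrays at 3 times, so p-values do not measure the spread between animals. In the additive fit they rest on how alike the response was in both genotypes, with 2 h and 4 h as separate terms. In the interaction fit they rest on how alike the difference between the genotypes was at 2 h and 4 h. The genes named were Akirin2 with Akirin1 and Lyz2; the 15 largest KO differences each way; the 10 largest response differences each way among induced and lowered genes; the 5 smallest interaction p-values; and measured members of the lists. The lists and settings were chosen with earlier results of these data known. Alternatives covered the floor, the probe set per gene, cross-hybridising probe sets, normalization, the size rule and the limma options. RefSeq promoter windows were matched by symbol for 264 of the 332 higher and 95 of the 123 lower genes; a gene with several starts has several windows.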

Additional observations from a re-analysis of the deposited data

Results flagged for a closer look

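The interaction of genotype and stimulation passed the limma threshold for 4 genes. For Ereg, the growth factor epiregulin, it was −1.94 (adjusted p = 0.026), with KO values of 3.92, 4.55 and 5.02 at 0, 2 and 4 h and wild-type values of 3.33, 5.89 and 6.38. Orly gave −1.93 (adjusted p = 0.026); it read 6.22 in KO at LPS 2 h and 7.81 in unstimulated KO, against 6.63 and 6.30 in wild-type cells. Rbms3, an RNA-binding protein, gave −1.78 (adjusted p = 0.045). It read 4.40 in KO at LPS 2 h and 5.53 in unstimulated KO, against 5.04 and 4.32 in wild-type cells. The 3 other probe sets of Rbms3 differed by −0.36, −0.07 and 0.13 in KO. For both Orly and Rbms3 the unstimulated KO value was the highest of the 6 arrays, and the part of that array in these calls was not tested. Mavs, the mitochondrial adaptor of RNA sensing, gave 1.75 (adjusted p = 0.046), with KO values of 4.46, 5.31 and 6.06 at 0, 2 and 4 h and wild-type values of 5.48, 4.48 and 5.45.

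Probe sets outside the named genes also differed between the KO arrays. The bioB and bioC hybridisation spikes were lower by 0.70 at LPS 2 h (log2 difference −0.7025), and the B1 and B2 repeat probe sets by 0.49 (−0.4904). Among 5431 probe sets above the floor with no gene named here, 49 (0.902%) were at least 2-fold higher in KO at LPS 2 h and 107 (1.97%) at least 2-fold lower, whereas named genes were more often higher. The largest of these differences was 3.30 (7.93 at LPS 2 h, 4.64 unstimulated) and the smallest −1.72 (3.46 and 5.18).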

How the results depend on the processing

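Of 868 values of 145 named genes past the 2-fold rule under the alternatives, 867 kept their sign and 817 stayed past the rule; the exception was Asph, at 0.2350 without probe sets that may cross-hybridise, where another probe set stands for the gene. Counts of KO genes were 217 higher and 49 lower with the mean of all probe sets, 887 and 670 at 1.5-fold, 78 and 6 at 4-fold, and 296 and 286 with the unstimulated wild-type array, an alternative chosen after seeing the data. Quantile normalization again gave 293 and 167. Induced genes with a smaller and a larger KO response numbered 8 and 1 with the mean of all probe sets, 65 and 41 at 1.5-fold, and 0 and 0 at 4-fold. Lowered genes weaker in KO numbered 5 with that mean, 9 after quantile normalization, 7 after centring, 153 at 1.5-fold and 0 at 4-fold; stronger ones numbered 24 at 1.5-fold and 0 at 4-fold. Without genes whose unstimulated KO value was the highest or lowest (chosen after seeing the data), larger responses numbered 0 and stronger ones 0, which that choice favours by construction. The additive limma fit gave 254 lower genes after centring, 841 higher and 828 lower with trend and robust, 683 lower at an adjusted p of 0.1, and 639 lower without the 4 h arrays. Positive and negative interactions numbered 0 and 0 with no floor, with a floor at the 75th percentile, without cross-hybridising probe sets and after centring, 0 and 1 with the mean of all probe sets, 20 and 42 after quantile normalization, 44 and 36 at the 0.1 threshold, and 155 and 101 when eBayes used trend and robust. The cause of these shifts was not tested, other than the size rules and thresholds, which change the counts by construction.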

Other observations

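Metabolic and matrix genes not described above were also among those higher in KO at LPS 2 h. Slc7a11, the cystine transporter, read 7.598 in KO at LPS 2 h and 3.79 unstimulated, the largest difference (3.81) of 12 measured NRF2 target and redox genes, of which 4 were at least 2-fold higher and 3 rose. The redox enzyme genes Srxn1 (1.26) and Txnrd1 (1.17) rose, while Gclm, a subunit of glutathione synthesis, was higher by 1.04 in KO and 0.08 in wild-type and did not pass the limma test; its other probe set read 5.47 in KO at LPS 2 h and 4.80 unstimulated, against 6.11 and 5.51 in wild-type. Arginine handling had 2 higher genes of 10: the transporter gene Slc7a2 (7.61 and 5.05) and the mitochondrial arginase gene Arg2 (7.16 and 5.16), while Arg1 fell with a KO difference of −0.73. Of 14 cholesterol synthesis genes, Idi1 (1.30) and Cyp51 (1.14) were higher, and in unstimulated cells they read 5.17 and 4.47 in KO, against 6.66 and 5.94 in wild-type.

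Of 15 matrix protease and plasminogen genes, 4 were at least 2-fold higher and 4 rose. Serpinb2, an inhibitor of plasminogen activators, read 7.98 in KO at LPS 2 h and 4.85 unstimulated, and Timp1, an inhibitor of metalloproteases, read 6.34 and 4.10. Mmp14 differed by 1.71. Mki67, a marker of proliferation, was the 1 gene of 27 measured cell cycle and replication genes that passed the rule, at 7.22 in KO at LPS 2 h and 4.93 unstimulated, with 2.10 as its difference in wild-type. The median of that list was −0.02. Of 16 glycolysis genes, the hexose transporter gene Slc2a6 (1.67) was the 1 higher gene. Over all genes, 2.44% were at least 2-fold higher, so 1 gene in either list is no result about the list. Irf4 was higher by 1.04 in KO and lower by 0.44 in wild-type, and did not pass the additive limma test (adjusted p = 0.730).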
